A study of Mus musculus with 9 samples.

Results

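The Slc25 genes encode the mitochondrial carriers, a family of small proteins that pass metabolites, nucleotides, cofactors and ions across the inner mitochondrial membrane. The family was taken here as every gene whose symbol in the array annotation is Slc25a followed by a number, measured by a probe set that names that gene alone. This gave 46 of the 22180 genes on the array, each with 1 probe set. A probe set that Slc25a35 shares with another gene was left out. The study profiled 9 skeletal muscles on 1 GeneChip array each, from 12-week-old male mice of C57BL/6J, an inbred laboratory strain, with no treatment or altered allele named in the labels. The series title concerns positional memory of muscle, so that the arrays were grouped by where the labelled muscle lies, from general anatomy. Masseter and digastric made up the head group (n = 2), trapezius, supraspinatus and triceps the shoulder and forelimb group (n = 3), and rectus femoris, tibialis anterior, soleus and gastrocnemius the hindlimb group (n = 4). The labels do not say whether RNA of several animals was pooled. The arrays of a region are different muscles, so that each SD is the spread between muscles and each p-value measures that spread only.

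Each carrier has 3 repeats of a domain with a pair of membrane spans, and most exchange 1 substrate for another between the cytosol and the matrix. In muscle the ADP/ATP and phosphate carriers feed ATP synthase and export its product, the aspartate/glutamate and oxoglutarate carriers complete the malate-aspartate shuttle that brings in reducing equivalents, and the acylcarnitine carrier admits fatty acids for oxidation. Others supply coenzyme A, nucleotides, iron or glutathione to the matrix, and several have no settled substrate. The members were placed in 8 classes by the substrate they are known for. As whole muscle was assayed, fewer cells of a type and less RNA per cell cannot be told apart.

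The values are log2 expression levels, so that a difference of 1 is a 2-fold change. A mean level above that of the median gene on the array (3.88) was found for 35 of the 46 carriers, and 11 lay below it. These 11 were Slc25a2, Slc25a13, Slc25a14, Slc25a18, Slc25a21, Slc25a31, Slc25a40, Slc25a41, Slc25a43, Slc25a53 and Slc25a54. Low values cannot be told from background, since no detection calls were used, and no gene was filtered out. The labels give no fibre type, but the fibre markers set soleus apart. The mean of 10 slow fibre genes was 10.40 in soleus against 4.85 to 7.33 in the other 8 muscles. The 12 fast fibre genes averaged 10.93 in soleus against 11.74 to 12.07. Of these 12 genes 11 were lower in soleus than the mean of the other hindlimb muscles, and 1 was higher, by 2.65. Before any comparison the arrays differed in the spread of their values. Over all probe sets the SD was 1.92 to 1.96 in triceps, rectus femoris and gastrocnemius and 2.03 to 2.08 in the other 6 muscles. None of the narrower arrays was of the head, 1 was of the shoulder and forelimb and 2 were of the hindlimb. Of the 35 brighter carriers 27 (77.1%) had a lower mean on the 3 narrower arrays, against 60.1% of all genes above the median gene, and 9 of all 46 carriers (19.6%, against 11.8% of all genes) had all 3 narrower arrays below the other 6. The counts by region, and the differences of the carriers that the results turn on where the size moved by over 1.5 times, are therefore also given over the 6 wider arrays.

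The plot of all members by muscle shows the levels in each array. The highest value of the 9 arrays fell in digastric for 8 carriers (17.4%, against 9.99% of all genes), in masseter and trapezius for 7 each (15.2%, against 11.8% and 7.33%), and in tibialis anterior for 0 (against 6.47%). The lowest fell in rectus femoris for 14 (30.4%, against 12.5% of all genes) and in gastrocnemius for 11 (23.9%, against 14.9%), both arrays of narrower range. Triceps, the remaining array of narrower range, was more often the highest array than the lowest. Gastrocnemius was also the highest array for some carriers, Slc25a25 and Slc25a48 among them. Masseter was also the lowest array for 7 (15.2%, against 15.6%). The members varied unequally. From lowest to highest muscle, Slc25a29, a carrier of basic amino acids, and Slc25a18, a glutamate carrier, spanned 0.36 and 0.38, while Slc25a1, Slc25a34, Slc25a25 and Slc25a20 spanned 2.01 to 2.36. Within the hindlimb, 1 array stood apart from the other 3 by Dixon's ratio for 3 carriers, Slc25a33, Slc25a40 and Slc25a43 (6.52%, against 7.14% of all genes).

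**Figure D1:**
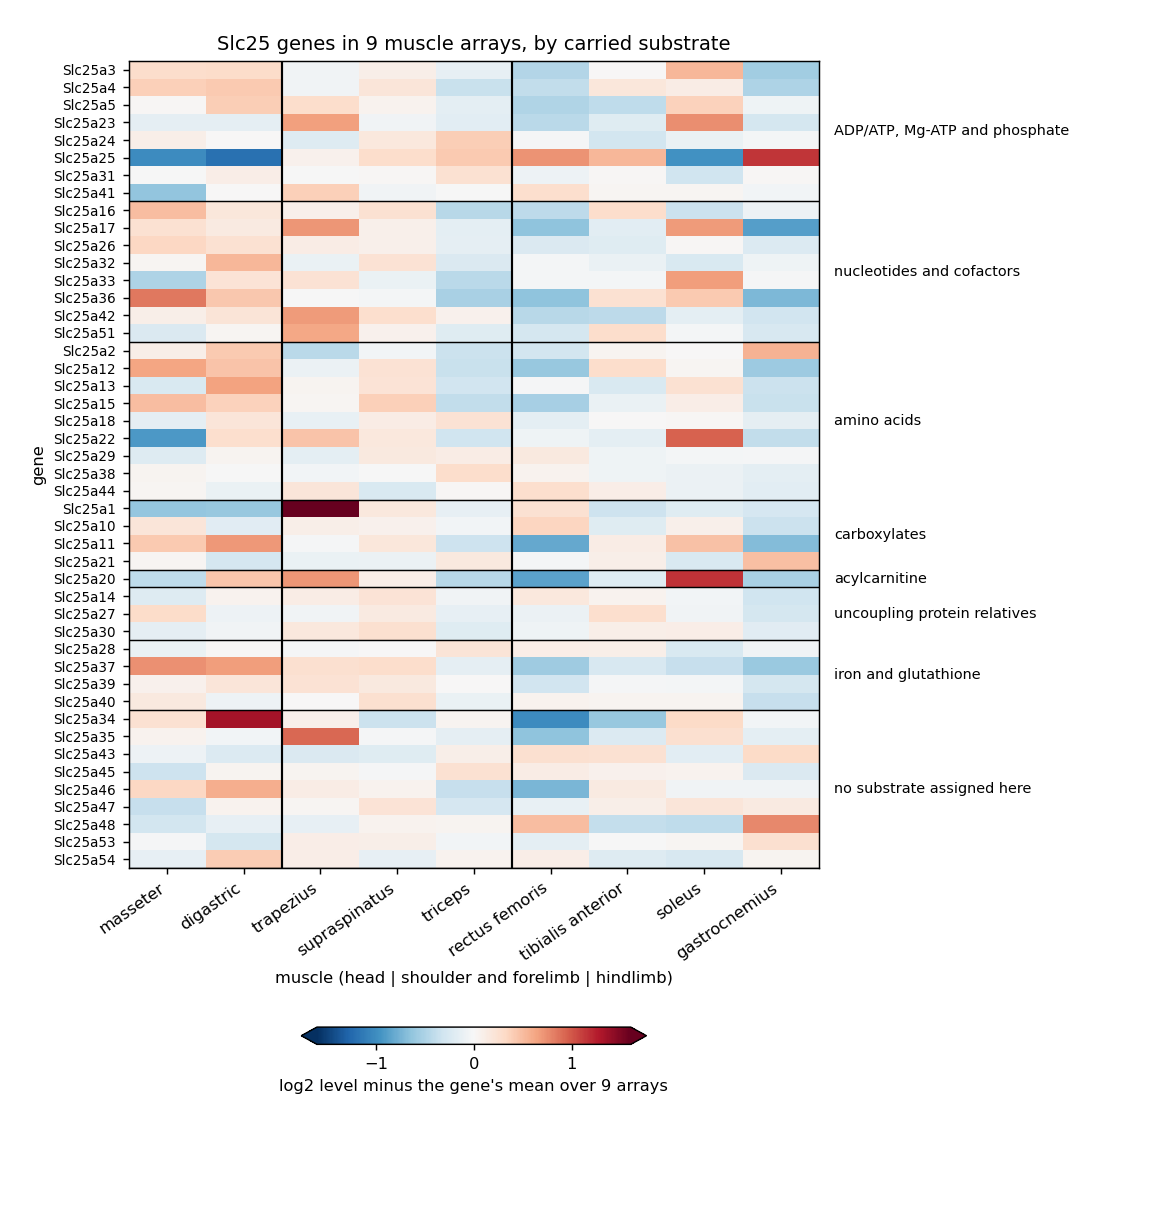
Log2 level of each of the 46 Slc25 genes in each of 9 muscle arrays (columns), as the difference from that gene's mean over the 9 arrays (colour, with values beyond the scale in the end colour); horizontal lines separate substrate classes and vertical lines body regions. Slc25a1 stands out in trapezius, Slc25a34 in digastric and Slc25a20 in soleus, and Slc25a25 is low in masseter, digastric and soleus.

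The first question was whether carriers differ between hindlimb and head muscles, which lie at opposite ends of the body axis. No carrier passed the test in hindlimb against head muscles (limma, adjusted p under 0.05, where 0.00902% of all genes passed). At an unadjusted p under 0.05, 10 carriers were lower in the hindlimb (21.7%, against 6.49% of all genes) and 1 was higher (2.17%, against 5.45%). The difference was negative for 28 of 46 (60.9%, against 45% of all genes), with a median of -0.13 against 0.04 over all genes. Brighter genes leaned the same way: of 11090 genes above the median gene 6430 were negative, with a median of -0.08. Of the 35 brighter carriers 22 were negative, with a median of -0.16. Every hindlimb array lay below both head arrays for 11 carriers (23.9%, against 9.78%), and above both for 2, Slc25a1 and Slc25a25 (4.35%, against 11.4%). Among the 6 wider arrays these counts were 15 (32.6%, against 17.7%) and 7 (15.2%, against 17.1%).

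**Figure D2:**
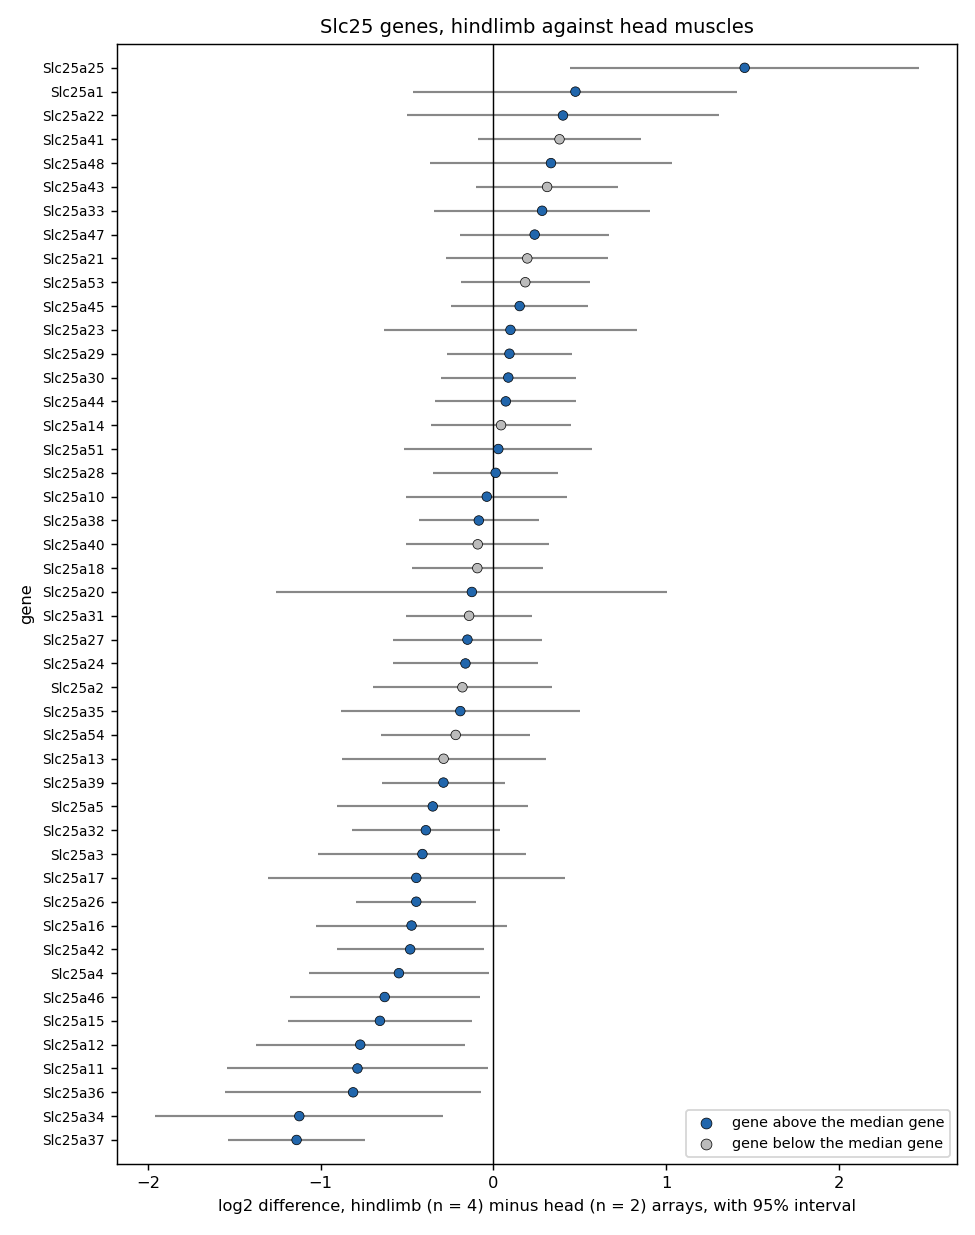
Log2 difference of each of the 46 Slc25 genes, hindlimb (4 arrays) minus head (2 arrays), as points with the 95% interval of the limma fit as lines, ordered by size; grey points are genes below the median gene of the array. The points run from -1.14 for Slc25a37 to 1.45 for Slc25a25, and 11 intervals lie wholly on 1 side of 0 before adjustment for the number of genes.

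Slc25a37, mitoferrin-1, brings iron into the matrix for haem and iron-sulphur clusters and is best known from red cell precursors. Its log2 level was 6.93 in masseter and 6.87 in digastric, 6.46 in trapezius, 6.48 in supraspinatus and 6.06 in triceps, and 5.64 in rectus femoris, 5.95 in tibialis anterior, 5.83 in soleus and 5.61 in gastrocnemius. The 3 regions did not overlap, with the head highest and the hindlimb lowest. It was 1.14 lower in hindlimb than in head muscles (SE 0.179, 2.20-fold, adjusted p = 0.198 in limma). The size ran from -1.21 to -0.98 over 21 alternatives, with adjusted p from 0.0788 to 0.722, and was -1.01 over the wider arrays. Between hindlimb and shoulder or forelimb muscles its difference was -0.58 (SE 0.158, adjusted p = 1 in limma), and between shoulder or forelimb and head muscles -0.56 (SE 0.189, adjusted p = 0.712 in limma). These comparisons share arrays and are not independent of one another.

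No other carrier had this order without overlap, so that 1 of 46 (2.17%) did, against 40 of 22180 genes (0.18%). The pattern was singled out after its values were seen. The reverse order was found for 0 carriers and 44 genes (0.198%). Of 8 erythroid markers 2 were measured, both low, with Epb42 at 2.41 to 3.34 and Slc4a1 at 3.56 to 4.28, with Epb42 highest in rectus femoris and Slc4a1 in digastric. The part of red cells in the level of Slc25a37 was therefore not tested beyond these 2 genes.

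The other carriers of its class did not have this spread. Slc25a28, mitoferrin-2, the iron carrier of most tissues, had a mean of 6.82 ± 0.09 in head (SD, n = 2), 6.92 ± 0.12 in shoulder and forelimb (SD, n = 3) and 6.84 ± 0.16 in hindlimb muscles (SD, n = 4), with a hindlimb minus head difference of 0.01 (95% interval -0.35 to 0.38). Slc25a39, which carries glutathione, was 7.03 ± 0.09 in head, 7.03 ± 0.11 in shoulder and forelimb and 6.74 ± 0.15 in hindlimb muscles (SD, n = 2, 3 and 4). Its hindlimb arrays, at 6.60 to 6.88, all lay below the others, at 6.90 to 7.13, by a gap smaller than the spread within either set. Slc25a40, its close relative, ranged from 3.04 in gastrocnemius to 3.66 in supraspinatus, below the median gene of the array. Among 6 measured genes of mitochondrial iron use all 6 had a negative hindlimb minus head difference, with a median of -0.42. They included Iscu, a scaffold for iron-sulphur clusters (-0.55), Glrx5, which hands clusters on (-0.54), and Fech, which inserts iron into haem (-0.44), and none passed the test. Over the wider arrays all 6 were negative with a median of -0.18, and these genes gave -0.30, -0.05 and -0.37 in the same order.

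**Figure D3:**
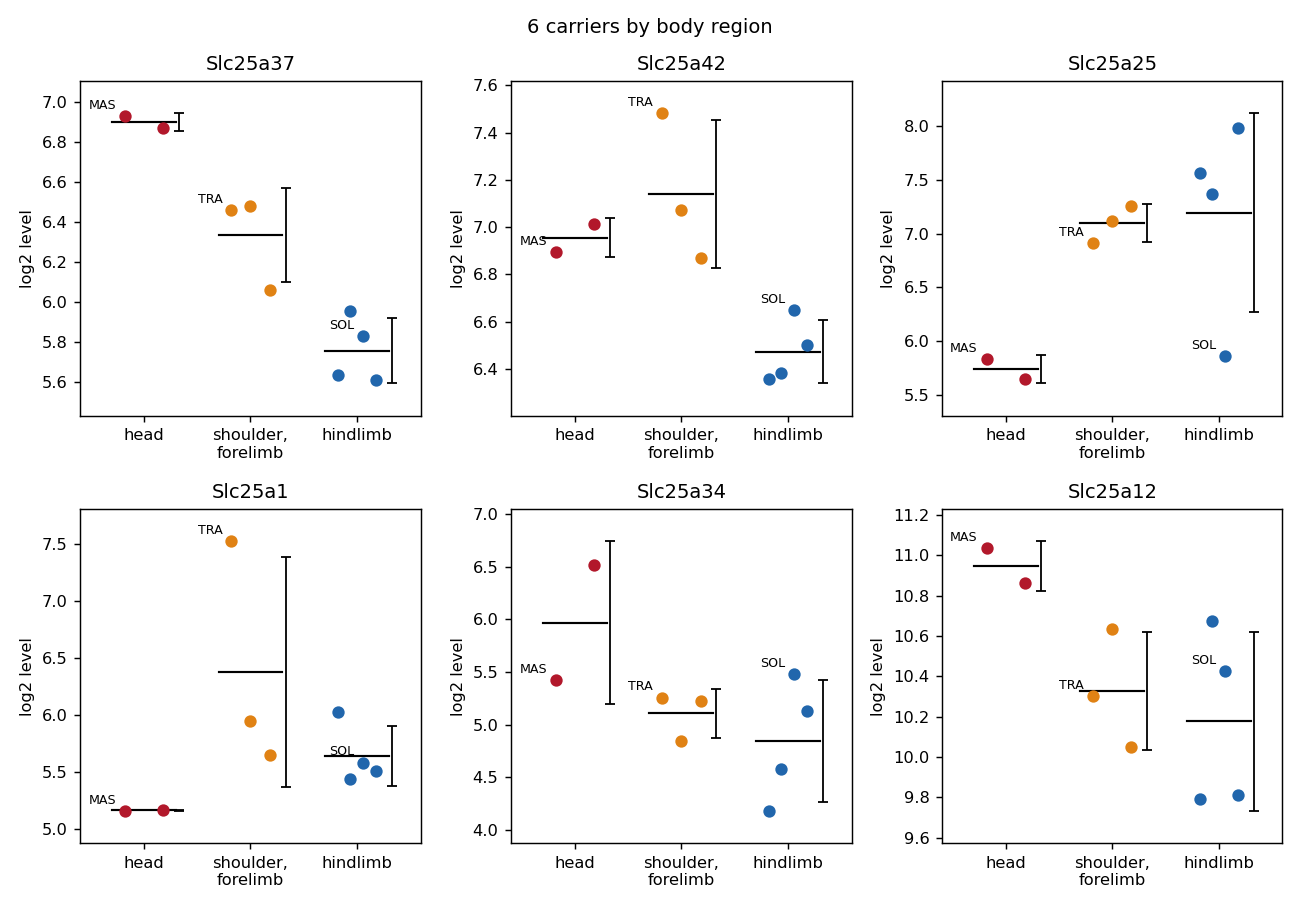
Log2 level of 6 Slc25 genes in each of 9 arrays (points; MAS masseter, TRA trapezius, SOL soleus), by body region, with the mean (line) and SD (bar) over the 2 head, 3 shoulder and forelimb and 4 hindlimb arrays; each panel has its own axis, which does not start at 0. Slc25a37 has no overlap between regions, Slc25a25 in soleus (5.86) sits with the head muscles, and the shoulder and forelimb mean of Slc25a1 is set by trapezius (7.52).

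Slc25a25, a Mg-ATP/phosphate carrier opened by calcium that loads adenine nucleotides into the matrix, had the opposite direction. Its level was 5.83 in masseter and 5.65 in digastric, 6.91 in trapezius, 7.12 in supraspinatus and 7.26 in triceps, and 7.56 in rectus femoris, 7.37 in tibialis anterior, 5.86 in soleus and 7.98 in gastrocnemius. Soleus stood with the head muscles and the other 6 muscles stood above them. Hindlimb exceeded head muscles by 1.45 (SE 0.456, 2.74-fold, adjusted p = 0.381 in limma). Without soleus the difference was 1.90 and passed (adjusted p = 0.0316 in limma, the lowest of a range up to 0.828 over 21 alternatives), in a fit where 19 genes passed. Over the wider arrays, which keep soleus and tibialis anterior, it was 0.88. Shoulder and forelimb exceeded head muscles by 1.36 (SE 0.481, 2.56-fold, adjusted p = 0.718 in limma).

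The rest of the ADP/ATP, Mg-ATP and phosphate class was mixed. Slc25a4, the ADP/ATP carrier of heart and muscle, was 10.82 ± 0.02 in head, 10.34 ± 0.28 in shoulder and forelimb and 10.27 ± 0.35 in hindlimb muscles (SD, n = 2, 3 and 4), a hindlimb minus head difference of -0.55 (adjusted p = 0.407 in limma) that was -0.25 over the wider arrays. Slc25a5, the ADP/ATP carrier of dividing cells, and Slc25a3, the phosphate carrier, differed by -0.35 and -0.41, and by -0.22 and -0.02 over the wider arrays. The calcium-regulated Slc25a24 ran from 4.56 in tibialis anterior to 5.26 in triceps. Slc25a31, the testis form of the ADP/ATP carrier, and Slc25a41, which lacks the calcium-binding part, stayed between 1.89 and 2.91 in every muscle. Of the 8 members 5 were lower and 3 higher in hindlimb than in head muscles, with a median of -0.15 (-0.11 over the wider arrays).

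Carriers of nucleotides and cofactors had the lowest class median in this comparison, -0.45 over 8 measured members, 6 of them negative. That median was -0.34 over the wider arrays, with 5 negative. Slc25a36, which moves pyrimidine nucleotides, was 6.996 in masseter and 6.58 in digastric, 6.14, 6.13 and 5.63 in trapezius, supraspinatus and triceps, and 5.51, 6.40, 6.57 and 5.43 in rectus femoris, tibialis anterior, soleus and gastrocnemius. Both head arrays lay above all others. Its hindlimb minus head difference was -0.81 (SE 0.335, adjusted p = 0.401 in limma) and -0.30 over the wider arrays, and its shoulder and forelimb minus head difference was -0.82 (SE 0.353, adjusted p = 0.72 in limma). Slc25a26, the S-adenosylmethionine carrier, which brings in the methyl donor of the matrix, was 0.45 lower in hindlimb than in head muscles (SE 0.157, adjusted p = 0.381 in limma). Its 2 head arrays, at 5.81 and 5.72, lay above all other arrays, at 5.24 to 5.59.

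Slc25a42, a carrier of coenzyme A, had the largest statistic against shoulder and forelimb muscles. Its level was 6.90 in masseter and 7.01 in digastric, 7.48 in trapezius, 7.07 in supraspinatus and 6.87 in triceps, and 6.36 in rectus femoris, 6.38 in tibialis anterior, 6.65 in soleus and 6.50 in gastrocnemius. All 4 hindlimb arrays lay below the other 5. The difference was -0.67 from shoulder and forelimb (SE 0.169, 1.59-fold, adjusted p = 1 in limma) and -0.48 from head muscles (SE 0.192, adjusted p = 0.399 in limma). Slc25a16, also linked to coenzyme A, did not share this split, at 5.87 in triceps to 6.81 in masseter. Slc25a32, which carries folate, and Slc25a51, which carries NAD, had hindlimb minus head differences of -0.39 and 0.03 whose 95% intervals included 0.

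Of the amino acid carriers, Slc25a12, the calcium-activated aspartate/glutamate carrier of muscle and brain, was 11.03 in masseter and 10.86 in digastric, 10.30 in trapezius, 10.63 in supraspinatus and 10.05 in triceps, and 9.79 in rectus femoris, 10.67 in tibialis anterior, 10.43 in soleus and 9.81 in gastrocnemius. Head arrays were highest and the 3 lowest values were those of the narrower arrays. The hindlimb minus head difference was -0.77 (SE 0.273, 1.71-fold, adjusted p = 0.383 in limma) and -0.40 over the wider arrays. Slc25a13, its liver counterpart, was below the median gene of the array at 2.11 to 3.09. Slc25a15, the ornithine carrier of the urea cycle, differed by -0.66 (SE 0.239, adjusted p = 0.387 in limma; -0.43 over the wider arrays), with 6.17 and 6.05 in the head and 5.15 to 5.79 in the hindlimb. Slc25a2, also an ornithine carrier, was low throughout, at 1.82 to 2.82, and had a hindlimb minus shoulder and forelimb difference of 0.35 that did not pass. Slc25a29, Slc25a38 (a glycine carrier) and Slc25a44 (a carrier of branched-chain amino acids) differed by 0.09, -0.08 and 0.07 between hindlimb and head muscles.

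Among carriers with no substrate assigned here, Slc25a34 was 5.42 in masseter and 6.52 in digastric, 5.26 in trapezius, 4.84 in supraspinatus and 5.23 in triceps, and 4.18 in rectus femoris, 4.58 in tibialis anterior, 5.48 in soleus and 5.13 in gastrocnemius. At the high end only digastric stood apart, 1.03 above soleus, the next array, while masseter lay just below soleus. The hindlimb minus head difference of -1.12 (SE 0.376, adjusted p = 0.381 in limma) rested on that array, since it was -0.58 without digastric and -1.67 without masseter. Its shoulder and forelimb minus head difference of -0.86 (SE 0.397, adjusted p = 0.72 in limma) was -0.31 without digastric and -1.41 without masseter. Slc25a46, which sits in the outer membrane and is linked to mitochondrial shape, was 8.06 ± 0.17 in head, 7.53 ± 0.26 in shoulder and forelimb and 7.43 ± 0.38 in hindlimb muscles (SD, n = 2, 3 and 4), with a hindlimb minus head difference of -0.63 (adjusted p = 0.399 in limma; -0.41 over the wider arrays). Of the other members without an assigned substrate, Slc25a35, Slc25a43, Slc25a45, Slc25a47, Slc25a48, Slc25a53 and Slc25a54 differed by -0.22 to 0.33. The uncoupling protein relatives Slc25a14, Slc25a27 and Slc25a30 differed by 0.04, -0.15 and 0.09.

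Genes outside the family moved beside these differences. All 20 measured respiratory chain and citrate cycle genes had a negative hindlimb minus head difference, with a median of -0.50, and none passed. Over the wider arrays 19 of the 20 were negative, with a median of -0.21. The relatives under other symbols gave -0.74 for Ucp3, -0.52 for Mtch2 and -0.40 for Mtch1, and -0.68, -0.19 and -0.07 over the wider arrays. Of 10 endothelial markers 9 were negative with a median of -0.53, and their mean level was 6.64 and 6.86 in the head and 5.83 to 6.80 in the hindlimb. The wider arrays gave 7 negative markers and a median of -0.16. All 9 myeloid markers were positive, with a median of 0.49 (0.41 over the wider arrays). The part of these cell types in the carriers' values was not tested.

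Hindlimb against shoulder and forelimb muscles, trapezius among the latter, asked the same question of these 2 regions. No carrier passed (limma, adjusted p under 0.05, 0.00451% of all genes), and 37 of 46 differences were negative (80.4%, against 51.8% of all genes), with a median of -0.10 against -0.01. Of 11090 genes above the median gene 6718 were negative, with a median of -0.05. Of the 35 brighter carriers 29 were negative, with a median of -0.11. At an unadjusted p under 0.05 there were 2 lower carriers, Slc25a37 and Slc25a42 (4.35%, against 1.81% of all genes), and 0 higher ones (1.84% of all genes). The hindlimb arrays lay below all of the shoulder and forelimb for Slc25a37, Slc25a39 and Slc25a42 (6.52%, against 2.3%) and above them for none (2.32% of all genes). Over the wider arrays 11 carriers (23.9%, against 17.9%) lay below and 4 (8.7%, against 15.9%) above.

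Between shoulder or forelimb and head muscles no carrier passed (limma, adjusted p under 0.05, 0% of all genes). Slc25a1 and Slc25a25 were higher at an unadjusted p under 0.05 (2 carriers, 4.35%, against 3.17% of all genes), and 2 were lower, Slc25a36 and Slc25a37 (4.35%, against 3.75%). The median difference was 0.04 for the carriers and 0.04 for all genes. The regions did not overlap for 10 lower carriers (21.7%, against 14.7%) and 2 higher ones (4.35%, against 15.2%). Over the wider arrays there were 10 lower (21.7%, against 19.6%) and 8 higher (17.4%, against 19.7%).

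Slc25a1, the citrate carrier, exports citrate for the synthesis of fatty acids and sterols. Its level was 5.16 in masseter and 5.17 in digastric, 7.52 in trapezius, 5.95 in supraspinatus and 5.65 in triceps, and 6.02 in rectus femoris, 5.44 in tibialis anterior, 5.58 in soleus and 5.51 in gastrocnemius. Trapezius was 1.50 above the next array (2.83-fold), and the head arrays were the lowest. The shoulder and forelimb minus head difference of 1.21 (SE 0.446, 2.31-fold, adjusted p = 0.718 in limma) was 0.63 without trapezius and -0.15 with trapezius counted with the head. The hindlimb minus shoulder and forelimb difference of -0.73 (SE 0.373, adjusted p = 1 in limma) was -0.16 without trapezius and -1.22 over the wider arrays. Of the other carboxylate carriers, Slc25a10, which moves dicarboxylates such as malate and succinate, ran from 4.01 in gastrocnemius to 4.69 in rectus femoris, and Slc25a21, which moves oxodicarboxylates, from 1.91 in digastric to 2.66 in gastrocnemius.

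Trapezius was the highest array for Slc25a1, Slc25a17, Slc25a35, Slc25a39, Slc25a41, Slc25a42 and Slc25a51, which is 7 of 46 (15.2%, against 7.33% of all genes). Slc25a1 and Slc25a35 exceeded the mean of the other 8 arrays by more than 2-fold (4.35%, against 0.636% of all genes). Such carriers were not particular to trapezius. By the same rule Slc25a20 and Slc25a22 stood out in soleus, Slc25a34 in digastric and Slc25a25 in gastrocnemius. Slc25a35, with no substrate assigned here, was 6.74 in trapezius, 6.09 in soleus and 5.18 to 5.88 in the other 7 muscles. Fat markers were also high on this array. The mean of 6 brown adipocyte markers was 7.31 in trapezius, 5.78 in supraspinatus and 4.46 to 5.49 elsewhere, with Ucp1, a relative of these carriers that uncouples brown fat mitochondria, at 9.36, 5.10 and 2.19 to 2.72. The mean of 6 white adipocyte markers was 7.24 in trapezius, 5.59 in supraspinatus and 4.65 to 5.44 elsewhere. Their part in the carriers' levels was not tested.

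Fibre type was addressed first with soleus, the slow muscle of the hindlimb, set against the mean of the other 3 hindlimb muscles. With 1 soleus array there was no test, and a difference past 2-fold was used to name carriers. There were 5 such carriers (10.9%, against 3.81% of all genes), 4 of them higher in soleus (8.7%, against 2.8%) and 1 lower (2.17%, against 1%). Slc25a20, the carnitine/acylcarnitine carrier, which brings long-chain fatty acids in for oxidation, was 8.60 in soleus against 6.59 in rectus femoris, 7.25 in tibialis anterior and 6.93 in gastrocnemius, a difference of 1.68 (3.20-fold). Soleus was also its highest of all 9 muscles, 0.45 above trapezius. Slc25a22, a glutamate carrier, was 5.98 in soleus against 4.96, 4.87 and 4.65 in rectus femoris, tibialis anterior and gastrocnemius, a difference of 1.15.

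Slc25a17, which serves peroxisomes rather than mitochondria and carries coenzyme A and related cofactors, was 6.22 in soleus against 4.89, 5.37 and 4.65 in the same order, a difference of 1.25. Slc25a23, a calcium-regulated Mg-ATP/phosphate carrier, was 7.56 in soleus against 6.39, 6.62 and 6.53, a difference of 1.05. It lay just inside the threshold and Slc25a11, at 0.94, just outside. Slc25a25, of the same kind as Slc25a23, was the lower one, at 5.86 in soleus against 7.56, 7.37 and 7.98, a difference of -1.77 (3.42-fold). These paralogs thus lay on opposite sides in soleus.

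**Figure D4:**
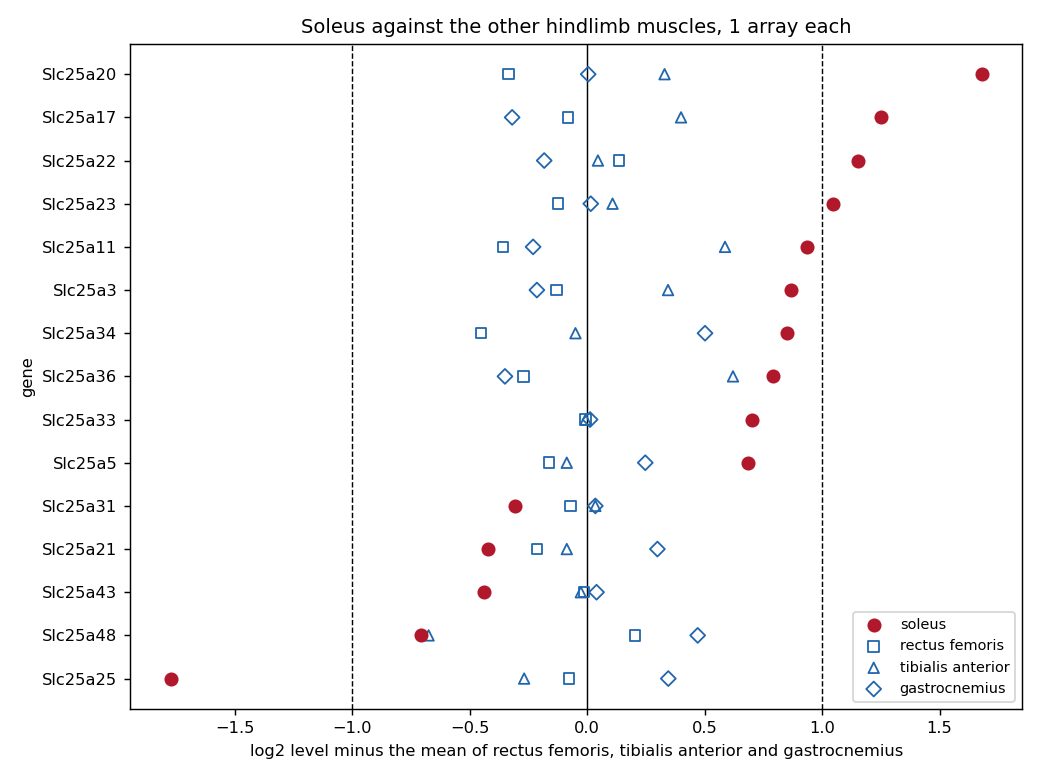
Log2 level in soleus (filled circles) and in rectus femoris, tibialis anterior and gastrocnemius (open symbols), each minus the mean of those 3 muscles, for the 10 Slc25 genes with the highest and the 5 with the lowest difference; 1 array per muscle, dashed lines mark a 2-fold difference. Slc25a20, Slc25a17, Slc25a22 and Slc25a23 lie beyond the upper line in soleus and Slc25a25 beyond the lower one.

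Tibialis anterior is the only other hindlimb array of wider value range, and its comparison with soleus alone was added after seeing the data. In it Slc25a20 (1.35), Slc25a22 (1.10) and Slc25a25 (-1.50) stayed past 2-fold, which is 2 higher (4.35%, against 1.58% of all genes) and 1 lower (2.17%, against 1.27%). Slc25a23 and Slc25a17 gave 0.94 and 0.85. Slc25a11 gave 0.35, and Slc25a48, at -0.70 against the 3 muscles, gave -0.03. Without tibialis anterior among the 3, 9 carriers in place of 5 were past 2-fold.

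Enzymes that act beside these carriers were set against soleus in the same way. Of the malate-aspartate shuttle, Mdh1 (1.02), Got1 (1.08), Got2 (0.78) and Mdh2 (0.41) had higher levels in soleus than the mean of the other 3, and against tibialis anterior alone they gave 0.65, 0.65, 0.34 and 0.33. Of the shuttle's carriers Slc25a11 was at 0.94 and 0.35. Slc25a12 was at 0.33, within the SD of the other 3 muscles (0.50), and at -0.25 against tibialis anterior. Slc25a13 was at 0.45, but below the median gene, where values cannot be told from background. The glycerol phosphate shuttle, which needs no carrier of this family, was lower, with Gpd1 at -2.53 and Gpd2 at -2.63. All 4 measured genes of the carnitine system were higher in soleus, with a median of 0.42 and 0.91 for Cpt2, the enzyme that takes over from Slc25a20. Of 10 listed oxidative regulators 8 were higher in soleus and 2 lower, with a median of 0.50 (0.20 against tibialis anterior). Their differences from the mean of the other 3 ran from -0.40 to 2.25. Among them Ppargc1a, Esrrg and Ppara were higher by 2.25, 1.83 and 1.81 than that mean. Of 10 endothelial markers 9 were higher in soleus, with a median of 0.79 (0.35 against tibialis anterior) and a mean level of 6.80 against 5.83 to 6.45, and their part in the carriers' values was not tested.

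Across all 9 muscles, the slope on the mean of the slow fibre genes was tested, in log2 units per log2 unit of that mean. No carrier passed (limma, adjusted p under 0.05, 0.135% of all genes, 30 genes that include genes of the mean itself). At an unadjusted p under 0.05 there were 4 carriers with a positive slope (8.7%, against 2.77% of all genes) and 0 with a negative one (1.73% of all genes). They were Slc25a23 (0.20, SE 0.052, adjusted p = 0.404 in limma), Slc25a20 (0.27, SE 0.085, adjusted p = 0.654 in limma), Slc25a22 (0.22, SE 0.072, adjusted p = 0.691 in limma) and Slc25a33, a pyrimidine nucleotide carrier (0.15, SE 0.051, adjusted p = 0.738 in limma). Without soleus, the array with most leverage, their slopes were 0.24, 0.23, 0.20 and 0.12, with an adjusted p of 0.942 for each in limma. Slc25a5 came next with a slope of 0.10 that did not pass. Trapezius, which came next after soleus in the slow fibre mean, also came next after it for Slc25a20, Slc25a22, Slc25a23 and Slc25a33. It is also the array with the high fat markers given above, whose part was not tested. Gastrocnemius, next after trapezius in that mean (6.74), was the next to lowest array for Slc25a20 (6.93), Slc25a22 (4.65) and Slc25a23 (6.53). For Slc25a33 it was at 5.67, below digastric at 5.91.

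The slope on the mean of 20 respiratory chain and citrate cycle genes, none of them a carrier, gave the only calls for the family. Of the 46 carriers 13 passed (28.3%, limma, adjusted p under 0.05, against 19.2% of all genes), 11 with a positive slope (23.9%, against 11.9%) and 2 with a negative one (4.35%, against 7.27%). The slope was negative for 15 of 46 (32.6%, against 58.1%). Of 11090 genes above the median gene 2487 passed with a positive slope and 666 with a negative one, and 4440 had a negative slope. Of the 35 brighter carriers these counts were 11, 2 and 10. The mean itself was 9.82 and 9.98 in masseter and digastric, 9.67, 9.66 and 9.36 in trapezius, supraspinatus and triceps, and 9.07, 9.62, 9.73 and 9.17 in rectus femoris, tibialis anterior, soleus and gastrocnemius. It was thus lowest in the 3 arrays of narrower range. With a term for value range in the fit 0 carriers and 0 genes passed, and over the 6 wider arrays 0 and 0. Respiratory gene level and value range therefore cannot be told apart by these calls.

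The called carriers came from several classes. Slc25a11, the oxoglutarate/malate carrier, had the smallest adjusted p. Its level was 10.23 in masseter and 10.50 in digastric, 9.79 in trapezius, 10.0002 in supraspinatus and 9.48 in triceps, and 8.99 in rectus femoris, 9.93 in tibialis anterior, 10.28 in soleus and 9.12 in gastrocnemius. Its slope of 1.71 (SE 0.185, adjusted p = 0.000736 in limma) kept its size with the range term (1.72, adjusted p = 0.443 in limma) and over the wider arrays (1.71, adjusted p = 0.673 in limma), over a range from 0.000299 to 0.673. Its partner in the malate-aspartate shuttle, Slc25a12, rose with the mean by 1.36 (SE 0.234, adjusted p = 0.00281 in limma). The shuttle enzymes Mdh1 (1.54), Got1 (1.61), Got2 (1.35) and Mdh2 (0.63) passed as well, 4 of the 6 listed, and Gpd1 (-0.99) and Gpd2 (-0.88) did not.

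Slc25a36 (1.63, SE 0.273, adjusted p = 0.00248 in limma), Slc25a17 (1.39) and Slc25a26 (0.59) rose among the nucleotide and cofactor carriers, and all 8 measured members of that class had a positive slope. Slc25a4 (1.06, SE 0.196, adjusted p = 0.00389 in limma) and Slc25a3 (1.05) rose in the ADP/ATP and phosphate class, while Slc25a5, at 0.74, did not pass. Slc25a15 (1.12), Slc25a37 (1.35), Slc25a46 (1.10) and Slc25a34 (1.54) made up the rest. The slope of Slc25a17 was 0.02 over the wider arrays and that of Slc25a34 was 0.92 without digastric, 4.71 over the wider arrays and 4.21 with the range term. Slc25a37 and Slc25a26 gave 2.22 and 0.98 over the wider arrays. Slc25a26 lay at the threshold (adjusted p = 0.0493 in limma).

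Slc25a25 fell by 2.40 per unit of the mean (SE 0.455, adjusted p = 0.00451 in limma), and its slope was -4.82 over the wider arrays. Slc25a48, which has no substrate assigned here, was 3.67 and 3.84 in masseter and digastric, 3.84, 4.02 and 4.01 in trapezius, supraspinatus and triceps, and 4.47, 3.59, 3.56 and 4.73 in rectus femoris, tibialis anterior, soleus and gastrocnemius. Only 2 narrower arrays, rectus femoris and gastrocnemius, were high. Its slope of -1.08 (SE 0.273, adjusted p = 0.018 in limma) was 0.07 over the wider arrays. Of 13 other mitochondrial transport genes 7 passed with a positive slope and 1 with a negative one. Sfxn3, a sideroflexin, had the negative one (-1.65), Micu2, a subunit of the calcium uniporter, was among the positive ones (1.84), and Mtch1 (0.997) and Mtch2 (1.11) passed among the relatives. Endothelial markers also rose with the mean, 7 of 10 past the threshold with a median slope of 1.14, and their part in the carriers' slopes was not tested.

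**Figure D5:**
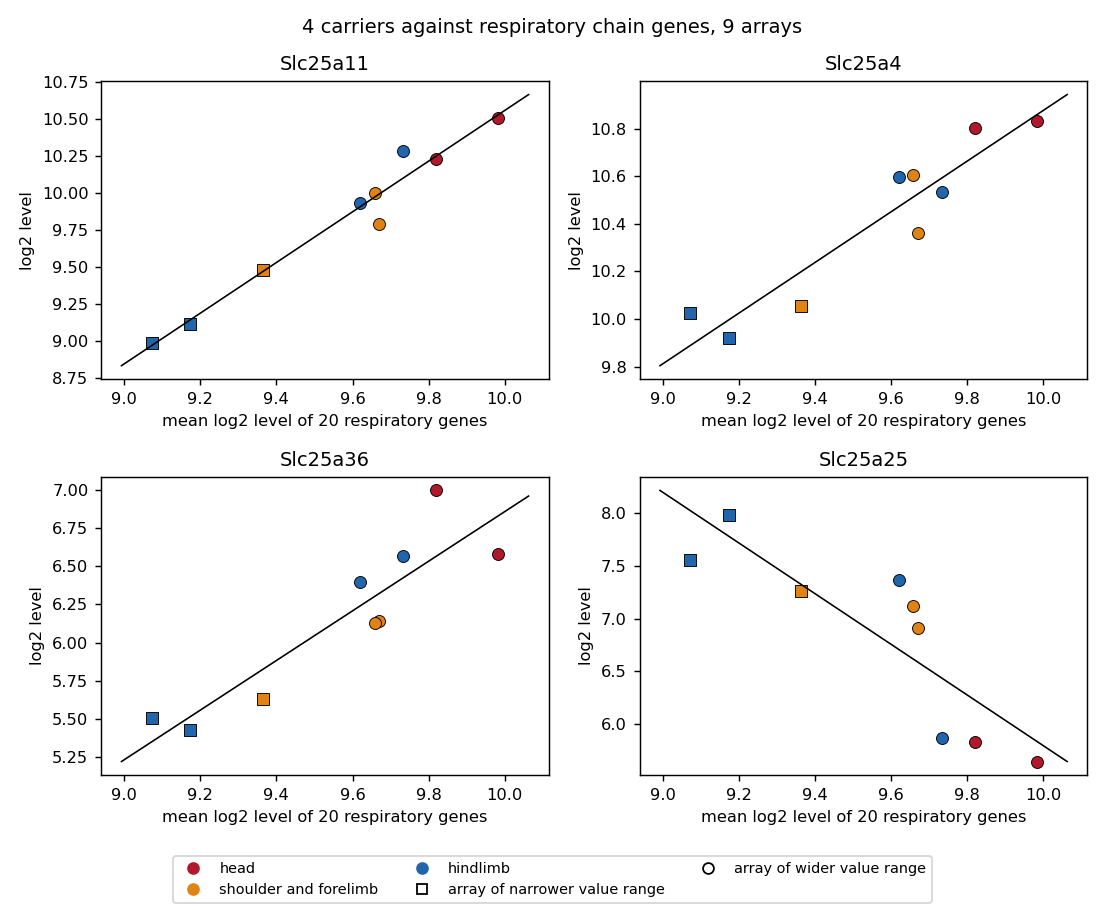
Log2 level of 4 Slc25 genes (vertical axes, which do not start at 0) against the mean log2 level of 20 respiratory chain and citrate cycle genes (horizontal axis) in 9 arrays, coloured by body region; squares are the 3 arrays of narrower value range and lines are the limma slopes over all 9 arrays. Slc25a11, Slc25a4 and Slc25a36 lie on rising lines with slopes of 1.71, 1.06 and 1.63 and Slc25a25 on a falling one (-2.40), and the squares are at the left in every panel.

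As several carriers ran with respiratory chain genes, promoters were searched for AAGGTCA, the core of the element bound by oestrogen-related receptors, which act on mitochondrial genes, on both strands, in RefSeq windows (GRCm38.p6) of 250 bases before to 50 bases after the start of the gene. Of the 46 carriers 36 had an entry, Slc25a37 not among them. The motif was in 1 of 36 (2.78%), against 5.38% of 27025 genes with a window of that length. The single match was in Slc25a34. The 250 bases before its start, at chr4:141623835-141624084 on the minus strand, are shown with the match in capitals, which reads TGACCTT on the gene's strand, 119 to 113 bases before the start.
Slc25a34: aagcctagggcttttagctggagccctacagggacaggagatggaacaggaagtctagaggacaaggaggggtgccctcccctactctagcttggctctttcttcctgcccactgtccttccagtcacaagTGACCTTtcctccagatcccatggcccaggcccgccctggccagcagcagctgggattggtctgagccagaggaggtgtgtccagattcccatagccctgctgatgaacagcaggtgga
The match is a description of letters and not of a bound site, and the 35 carriers without it say nothing of the receptors' action elsewhere.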

How the data were processed

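Biotin-labelled cDNA of total RNA from 9 frozen muscles was hybridised to whole-transcript GeneChip arrays, per the labels' protocols. The deposited values are log2 expression levels per probe set, made by the authors with GCRMA, a background correction that uses probe sequence followed by normalization across arrays, per the submitters' processing notes. No version is given. Values between 0.12 and 13.49 were taken as log2 for their range. No genome build is named.

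Of 41345 probe sets 23521 named 1 gene, 1814 several and 16010 none here. Where a gene had several (1082 genes), the probe set of highest mean was kept, which left 22180 genes. The members and gene lists were chosen with earlier results of these data known. Of 183 list entries, 19 had no probe set of their own.

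All genes entered limma 3.58.1 (R 4.3.3; lmFit and eBayes, two-sided), with 1 mean per region or a slope on a score. P-values were adjusted by Benjamini-Hochberg over all genes, with a threshold of 0.05. The residual degrees of freedom were 6 for the regions, and 10.4 after moderation. Every p comes from this tool. Soleus was compared by size, called past a log2 difference of 1. The number of arrays limits the precision. The procedure was tested on simulated data.

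Any carrier could be named. Results turn on those past the threshold or, where under 5 passed, on the 5 with the largest moderated statistic, and for soleus on the 5 largest differences in each direction. Other genes came from the lists. Alternatives were centring on array medians, normalization by quantiles or cyclic loess, only genes above the median gene, averaged probe sets, updated symbols, trend with robust fitting, only the regions compared, trapezius counted with the head, a slow fibre covariate, region beside a score, a term for value range, only the wider arrays, and each array left out. The soleus and tibialis anterior comparison, and the counts without overlap and the gene lists over the wider arrays, were added after seeing the data.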

Additional observations from a re-analysis of the deposited data

Results flagged for a closer look

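Among the 4 hindlimb arrays, 1 array stood apart from the other 3 for 3 carriers, by the critical value of Dixon's ratio, the gap to the nearest neighbour over the whole range. Slc25a33, a pyrimidine nucleotide carrier, was 6.35 in soleus against 5.65 to 5.67 in the others, a ratio of 0.973. Slc25a40, a relative of the glutathione carrier, was 3.04 in gastrocnemius against 3.45 to 3.47, a ratio of 0.957. Slc25a43, with no substrate assigned here, was 2.24 in soleus against 2.65 to 2.72, a ratio of 0.86. These 3 of 46 are 6.52% of the carriers, against 7.14% of all genes. Soleus is the slow muscle of the group, and both Slc25a40 and Slc25a43 lay below the median gene of the array. The head and the shoulder and forelimb groups were too small for this rule.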

How the results depend on the processing

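In the 3 region comparisons no carrier passed under any alternative except 1, Slc25a25, in hindlimb minus head without soleus (1.90), so that the count with 1 array left out ran from 0 to 1. No carrier passed for the slow fibre score under its 19 alternatives. For the respiratory chain score the 13 called carriers became 8 with quantile and 6 with cyclic loess normalization, 7 with region as a term, 0 with the value range as a term and 0 over the wider arrays. They were 9 to 15 with 1 array left out. The carriers past 2-fold in soleus, 5 at first, were 3 with quantile normalization, 3 against tibialis anterior alone and 4 to 9 with 1 other array left out, 9 without tibialis anterior. The median difference of the carriers ran from -0.17 to -0.03 for hindlimb minus head, from -0.18 to -0.05 for hindlimb minus shoulder and forelimb, and from -0.15 to 0.10 for shoulder and forelimb minus head. The last of these medians, 0.04 at first and near 0, thus changed sign under some alternatives. Reversed values among named carriers were Slc25a1 in shoulder and forelimb minus head with trapezius counted with the head (-0.15) and the respiratory slope of Slc25a48 over the wider arrays (0.074). The causes were not tested. Of 753 values of named carriers under alternatives, 677 kept direction and side of the threshold, 64 no longer passed, 1 newly passed, 9 moved beyond the spread and 2 reversed. The 677 include values that could not change. Averaging probe sets left every carrier as it was, since each has 1 probe set. Leaving out an array of a region not compared left the difference unchanged. The 677 also include results that passed neither before nor after. Where leaving out an array left 1 head array, that array was assumed to vary like the other groups. No paired analysis was possible because the sample annotation used here links no arrays by animal. The replicate numbers only count the muscles of a region. Whether muscles came from the same animals, so that arrays are not independent, could not be judged. Signal over background could not be judged for the 11 carriers below the median gene.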
